A study of Drosophila melanogaster with 21 samples.

Results

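The genes of the fourth chromosome of Drosophila melanogaster were followed in male wing imaginal discs that lacked a component of the MSL dosage compensation complex. Of 110 genes placed on this chromosome in the count table, 22 did not reach 10 counts in at least 3 of the 21 libraries and 1 is not analysed here. The other 87 genes, 76 of them protein coding, 10 non-coding RNAs and 1 pseudogene, are described below. Of these, 86 could be tested in the 20 libraries analysed, in which JYalpha, an ATPase gene, fell below the minimum.

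The fourth chromosome is the smallest of the fly, and its genes lie in chromatin rich in HP1 and in methylated histone tails. Many of them are nevertheless expressed at ordinary levels. The protein encoded by Pof coats their bodies, and its binding depends on the histone methyltransferase encoded by egg. The MSL complex, in contrast, coats the male X, and its roX RNAs have been linked to the output of heterochromatic genes in males.

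Poly-A RNA was sequenced from discs, the larval precursors of the wing, of males in the third larval instar, reared at 25 °C in every group. Mutants were homozygous for msl-2.227 (4 libraries), msl-1.L60 (3 libraries) or mle.9 (3 libraries), or carried roX1.SMC17A together with roX2 delta (3 libraries), and the labels call all of them null. Controls were heterozygous for msl-2.227 (3 libraries), msl-1.L60 (3 libraries) or mle.9 (2 libraries) over CyO-GFP, a GFP-marked balancer of chromosome 2 that blocks recombination. The msl-2 and mle alleles came in Bloomington stocks, and the roX1 roX2 stock was a gift to the authors. The products of msl-2 and msl-1 form the core of the complex, mle encodes its RNA helicase, and roX1 and roX2 are its non-coding RNAs. The balancer was present in heterozygous discs and not in homozygous ones, so its effect and that of the mutation cannot be told apart. The roX1 roX2 mutants have no control of their own stock here and were set against the mean of the 3 heterozygous group means, so stock and genotype cannot be told apart in that comparison. The labels do not say that replicates came from separate crosses, and p values measure only the spread between libraries.

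Heterozygous msl-1 replicate 2 stood apart and was left out of the fit. Its total was 830905 counts, with 0.807% of them on the fourth chromosome, and its median correlation with the other libraries of its group was 0.509. The other 20 libraries held 1388848 to 4131600 counts, of which 1.46% to 1.84% lay on the fourth chromosome. The biological coefficient of variation was 0.206 over 20 libraries and 0.340 over 21. roX2 was lower in every mutant, by log2 -12.23 (roX1 roX2, where it had no counts), -8.48 (msl-1), -7.16 (mle) and -6.79 (msl-2). roX1 was at log2 -6.02 (roX1 roX2), -5.15 (mle) and -4.74 (msl-1), but at -0.62 ± 0.19 (SE, adjusted p = 0.0374) in msl-2 mutants, with 1671 ± 157 CPM (counts scaled to library size), against 2569 ± 80.2 CPM in msl-2 heterozygous discs (SD, n = 4 and 3). The transcripts of the mutated genes themselves were at log2 -0.91 (msl-2), 0.64 (msl-1) and 0.69 (mle) in their own mutants, and all 3 passed. The summed level of 5 wing disc marker genes was 571 to 1245 CPM in mutant libraries and 1116 to 1439 CPM in heterozygous ones. In msl-1 mutants it was 633 to 695 CPM, against 1321 to 1439 CPM in msl-1 heterozygous discs. There, 5 of the 5 genes were lower, and 4 of 5 in mle mutants, against 13.4% and 9.84% of all genes tested. Of these markers sd lies on the X, with log2 -0.70 in msl-1 and -0.65 in mle mutants. No marker was at 0 in every library of a group. In whole discs, fewer cells of a type and less RNA per cell cannot be told apart.

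Levels per length spanned a wide range. The median gene of the chromosome stood at 27.3 RPKM (CPM divided by exon length) over the heterozygous libraries, against 16.6 RPKM for chromosome 3, and 55 of the 87 genes were over 10 RPKM and 5 under 1 RPKM. RpS3A, a ribosomal protein gene, led with 2588 RPKM. The next were ATPsynbeta of the mitochondrial ATP synthase with 533 RPKM, the small GTPase gene Arf4 with 282 RPKM, CG31997 with 266 RPKM and the adaptor gene Crk with 170 RPKM. NfI, which encodes a nuclear factor, had the lowest level, 0.707 RPKM. At the edge of the count minimum, yellow-h reached 10 counts in 4 libraries and JYalpha in 3, while the 5 genes just outside, among them lncRNA:CR43958 and lncRNA:sphinx, reached it in 2.

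Relative to chromosome 3, the median fold change of chromosome 4 genes against heterozygous discs was lowest in msl-1 mutants. It was lower by less in mle and roX1 roX2 mutants and hardly shifted in msl-2 mutants. Of the msl-1 heterozygous libraries, replicate 3 itself stood above all other heterozygous ones, as given per library below. The median log2 fold change of the 86 genes minus that of 4337 chromosome 3 genes was -0.37 in msl-1 mutants, which puts the median gene at 77.4% of its heterozygous level relative to chromosome 3. It was -0.14 (90.7%) in mle mutants, -0.15 (90.4%) in roX1 roX2 mutants and -0.02 (98.3%) in msl-2 mutants. For the X the same difference was -0.40, -0.60, -0.37 and -0.36 in msl-1, mle, roX1 roX2 and msl-2 mutants.

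Values per library were set against the mean of all heterozygous libraries. The 3 msl-1 mutant libraries stood at -0.14, -0.22 and -0.21, against 0.03 and 0.12 in msl-1 heterozygous discs, and the 3 mle mutant libraries at -0.28, -0.19 and -0.12, against -0.02 and -0.07 in mle heterozygous discs. In both stocks every mutant library lay below every heterozygous one. The group means of msl-1 and mle mutants were alike, both at -0.19, while msl-1 heterozygous discs stood at 0.07 and mle ones at -0.04. The msl-1 mutant and heterozygous means were thus closer together than the -0.37 from the fold-change medians. Of the 2 msl-1 heterozygous libraries, replicate 3, at 0.12, was above all other heterozygous libraries. Replicate 1, at 0.03, lay within the msl-2 heterozygous range. The part of the heterozygous discs in the larger msl-1 shift was not tested. The 4 msl-2 mutant libraries, at -0.14, -0.12, 0.02 and -0.11, overlapped the msl-2 heterozygous ones at 0.05, -0.03 and -0.04. Group means were -0.09 in msl-2 mutants and -0.01 in msl-2 heterozygous discs, further apart than the -0.02 from the fold-change medians. The roX1 roX2 libraries differed most among themselves, at -0.41, -0.10 and 0.05, and overlapped the heterozygous range.

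**Figure D1:**
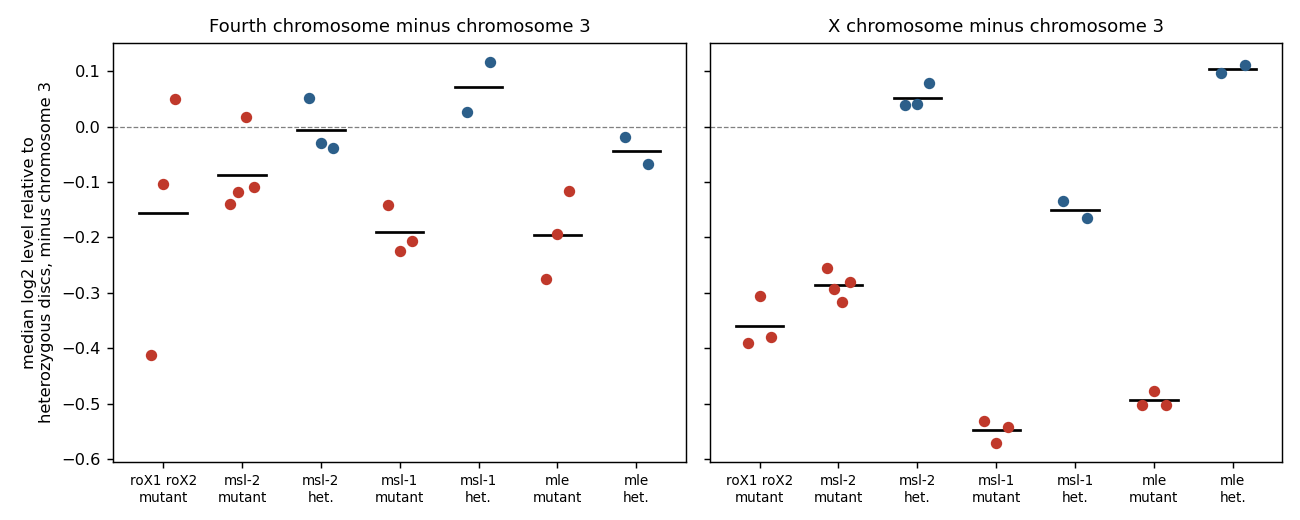
Median log2 level of chromosome 4 genes (left) and X genes (right) relative to the heterozygous mean, minus that of chromosome 3 genes, with 1 point for each of the 20 libraries and a bar for the group mean; red, mutant; blue, heterozygous. On the left, the msl-1 and mle mutants lie below their own heterozygous discs, and the roX1 roX2 libraries spread from -0.41 to 0.05; on the right, every mutant library lies below every heterozygous one.

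The shift in msl-1 mutants was not even over expression levels. In the 29 genes of lowest mean level the median minus that of chromosome 3 genes of the same level was -0.54, in the 28 of middle level -0.49 and in the 29 of highest level -0.12. Low genes of chromosome 3 were themselves lower in this comparison, with a median of -0.54, and msl-1 mutant libraries had counts for 13377 to 14152 genes, against 14477 and 15816 in msl-1 heterozygous discs. The wing disc markers above were lower in the same libraries, and so were 4 of 7 markers of neurons and glia (brp, Syt1, futsch and elav at log2 -2.03, -1.63, -1.24 and -1.18; the last 2 lie on the X), with 6 of the 7 below 0 and a median of -1.18. The part of these in the shift was not tested. In mle mutants the same differences were -0.12, -0.20 and 0.01, in roX1 roX2 mutants -0.26, -0.19 and 0.00, and in msl-2 mutants 0.00, -0.11 and 0.03, from the lowest to the highest level. With all 21 libraries the msl-1 shift was -0.06, and with genes above the median level of the 86 it was -0.13 in msl-1, -0.03 in mle and 0.06 in msl-2 mutants. Without roX1 roX2 replicate 2 the roX1 roX2 shift was -0.02, and the mle shift was -0.09 without mutant replicate 2 or heterozygous replicate 1.

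Single genes passed the test in both directions. In msl-2 mutants 6 of the 86 genes were lower and 1 was higher at an adjusted p under 0.05 (edgeR), against 9.02% lower and 3.2% higher among all genes tested. In msl-1 mutants 15 were lower and 3 higher, against 13.4% and 11.4% of all genes. In mle mutants 4 were lower and 4 higher, against 9.84% and 4.27%. In roX1 roX2 mutants 5 were lower and 4 higher, against 8.49% and 6.87%. In msl-2 mutants 2 to 9 genes were lower when 1 library was left out, with 2 without heterozygous replicate 1, 3 without heterozygous replicate 2 or mutant replicate 2 and 9 without heterozygous replicate 4. In msl-1 mutants 7 were lower and 0 higher without heterozygous replicate 3. In mle mutants 1 was lower without heterozygous replicate 1 or mutant replicate 2. All genes include the X, and on chromosome 3 alone the shares lower were 5.33%, 10.7%, 4.50% and 3.92% in msl-2, msl-1, mle, then roX1 roX2 mutants. The chromosome 4 shares lower, 6.98%, 17.4%, 4.65% and 5.81%, and higher, 1.16%, 3.49%, 4.65% and 4.65%, stand in the same order. The shares higher on chromosome 3 were 3.25%, 12.5%, 4.77% and 7.22%.

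In msl-1 mutants 37 of the 86 genes had every mutant library below every heterozygous one and 15 the reverse, against 28.7% and 25% of all genes. The counts below were 16 in msl-2, 18 in mle and 4 in roX1 roX2 mutants, against 19.1%, 23.6% and 6.44% of all genes, and the counts above were 7, 7 and 2, against 9.85%, 14.6% and 4.86%. The lower calls in msl-1 mutants were not spread evenly along the chromosome. Of the 15, 6 were among the first 29 genes by position and 9 among the next 28, and the 3 higher calls were among the last 29. This was seen in the values and not tested.

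**Figure D2:**
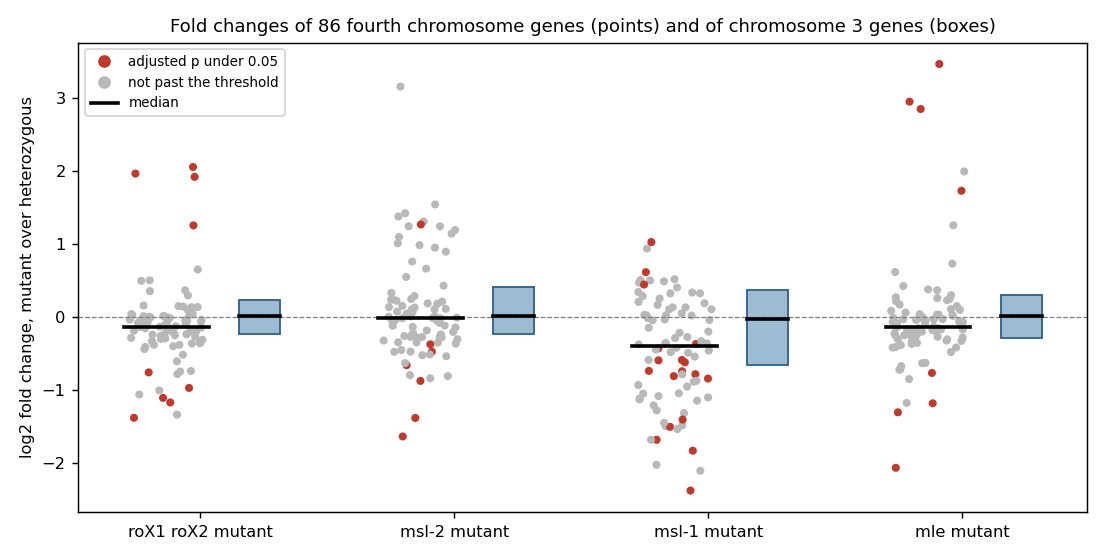
Log2 fold change, mutant over heterozygous, of the 86 chromosome 4 genes (points; red, adjusted p under 0.05; black bar, median) beside the median and quartiles of chromosome 3 genes (boxes) in 4 comparisons. The median of the fourth chromosome sits furthest below that of chromosome 3 in msl-1 mutants, and the highest red points belong to unc-13 and the genes opposite it in mle and roX1 roX2 mutants.

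The msl-2, msl-1 and mle comparisons share no library. Across them, 63 of the 87 genes passed in no comparison, JYalpha included, 19 passed in 1, 1 in 2 and 4 in all 3. These are 72.4%, 21.8%, 1.15% and 4.60% of the 87, against 64.9%, 22.7%, 8.60% and 3.73% of all genes tested. The 3 genes lower in all 3 stocks were CG31997, mav and Sox102F, which are 3 of 6 lower genes in msl-2, 3 of 15 in msl-1 and 3 of 4 in mle mutants. The pseudogene CR43361 was higher in all 3. Over all genes tested, 249 (2.51%) were lower and 119 (1.20%) higher in all 3 stocks, against 3.45% and 1.15% of the 87. The roX1 roX2 comparison uses the same heterozygous libraries, and its values are given beside the others.

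mav encodes the TGF-beta family ligand maverick (FBgn0039914, chromosome 4, 623219 to 626031, minus strand). Its level was 141, 176, 206 and 203 CPM in msl-2 mutants, against 329, 272 and 261 CPM in msl-2 heterozygous discs. It was 87.1, 83.1 and 67.2 CPM in msl-1 mutants, against 228 and 192 CPM in msl-1 heterozygous discs, and 131, 121.5 and 150.5 CPM in mle mutants, against 258 and 199 CPM in mle heterozygous discs. No mutant library reached a heterozygous library of its stock. The roX1 roX2 libraries, at 147, 174 and 104 CPM, were below all heterozygous ones. The log2 fold changes of mav were -0.66 ± 0.17 (SE, adjusted p = 0.0122), -1.41 ± 0.21 (3.27e-05), -0.77 ± 0.20 (0.0104) and -0.76 ± 0.16 (0.00193) in msl-2, msl-1, mle, then roX1 roX2 mutants. The call was lost without msl-2 heterozygous replicate 1 (-0.55, adjusted p = 0.0954) in msl-2 and without mle heterozygous replicate 1 (-0.57, adjusted p = 0.215) in mle mutants, and against msl-1 heterozygous discs alone the roX1 roX2 value was -0.57 (adjusted p = 0.0877).

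The other ligands of this family on the chromosome are myo, which encodes myoglianin, and Actbeta, an activin gene. myo was lower in msl-1 mutants, where it stood at 84.0, 66.8 and 70.1 CPM, against 127.5 and 136 CPM in msl-1 heterozygous discs (log2 -0.85 ± 0.17, adjusted p = 0.000758). In the other mutants myo was between -0.09 and -0.27 and did not pass. Actbeta, a gene of 1.23 RPKM in heterozygous discs, ran from log2 -1.28 in msl-1 to 0.90 in msl-2 mutants and did not pass in any comparison. Of the 3 ligands, 1, 2, 1 and 1 were thus lower in msl-2, msl-1, mle, then roX1 roX2 mutants, with list medians of -0.27, -1.28, -0.13 and -0.26.

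Sox102F encodes an HMG-box transcription factor of the SoxD family (FBgn0039938, chromosome 4, 800436 to 834393, minus strand). Its level was 24.7, 20.3, 26.8 and 36.0 CPM in msl-2 mutants, against 56.8, 57.3 and 35.4 CPM in msl-2 heterozygous discs. It was 11.6, 10.4 and 8.04 CPM in msl-1 mutants, against 41.5 and 62.7 CPM in msl-1 heterozygous discs, and 17.6, 12.8 and 30.2 CPM in mle mutants, against 60.3 and 32.6 CPM in mle heterozygous discs. The groups were apart in msl-1 and mle and overlapped in msl-2, where mutant replicate 4 was just above heterozygous replicate 4. In roX1 roX2 mutants it was 26.4, 23.9 and 24.9 CPM. The log2 fold changes were -0.88 ± 0.26 (SE, adjusted p = 0.0308) for msl-2 mutants, -2.38 ± 0.36 (5.21e-05) for msl-1, -1.19 ± 0.31 (0.0129) for mle, then -0.97 ± 0.25 (0.0103) for roX1 roX2 mutants. The fall was deeper in msl-1 than in msl-2 mutants by log2 -1.51 ± 0.45 (adjusted p = 0.0281). In msl-2 the call was lost without any one of mutant replicates 1, 2 and 3 or heterozygous replicates 1 and 2, at log2 -0.84, -0.77, -0.87, -0.77 and -0.76, and in mle without mutant replicate 1 or 2 (-1.10 and -0.93) or heterozygous replicate 1 (-0.67). Against mle heterozygous discs alone the roX1 roX2 value was -0.89 (adjusted p = 0.0683).

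CG31997 (FBgn0051997, chromosome 4, 154654 to 156060, minus strand) is among the most abundant genes of the chromosome per length. Its level was 63.3, 101, 80.7 and 77.5 CPM in msl-2 mutants, against 275, 264 and 215 CPM in msl-2 heterozygous discs. It was 29.3, 72.2 and 38.5 CPM in msl-1 mutants, against 181 and 160.5 CPM in msl-1 heterozygous discs, and 65.3, 34.8 and 91.9 CPM in mle mutants, against 132 and 187 CPM in mle heterozygous discs. Every mutant library was below every heterozygous library of any stock, including the roX1 roX2 libraries at 118.5, 57.6 and 72.8 CPM. The log2 fold change was -1.64 ± 0.31 (SE, adjusted p = 0.00322) for msl-2 mutants, -1.84 ± 0.39 (0.00256) for msl-1, -1.31 ± 0.37 (0.0250) for mle, then -1.17 ± 0.30 (0.0131) for roX1 roX2 mutants. In mle mutants the call was lost without mutant replicate 1 or 2 or heterozygous replicate 1 or 2 (log2 -1.32, -1.01, -1.54 and -1.03), and in roX1 roX2 mutants without replicate 3 or 4 (-0.98 and -1.08) or against msl-1 (-1.02) or mle (-0.92) heterozygous discs alone.

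CG31999 (FBgn0051999, chromosome 4, 215009 to 227748, minus strand) followed the same direction in 3 of the mutants. It stood at 10.3, 11.4, 13.02 and 8.73 CPM in msl-2 mutants, against 32.7, 21.8 and 30.8 CPM in msl-2 heterozygous discs. It was 5.39, 8.63 and 7.47 CPM in msl-1 mutants, against 16.7 and 30.6 CPM in msl-1 heterozygous discs. The groups did not overlap in either stock, with log2 -1.39 ± 0.29 (SE, adjusted p = 0.00374) and -1.69 ± 0.38 (0.00269). In roX1 roX2 mutants, at 6.84, 15.04 and 14.3 CPM, the log2 fold change was -1.11 ± 0.28 (adjusted p = 0.00957), a call lost without replicate 2 (-0.78) and against msl-1 (-1.02) or mle (-1.04) heterozygous discs alone. In mle mutants replicate 3, at 25.6 CPM, reached the heterozygous level of 22.5 and 25.6 CPM, and the gene did not pass (log2 -0.42 ± 0.34, adjusted p = 0.502). The msl-1 call was lost without heterozygous replicate 3 (-1.21, adjusted p = 0.111).

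**Figure D3:**
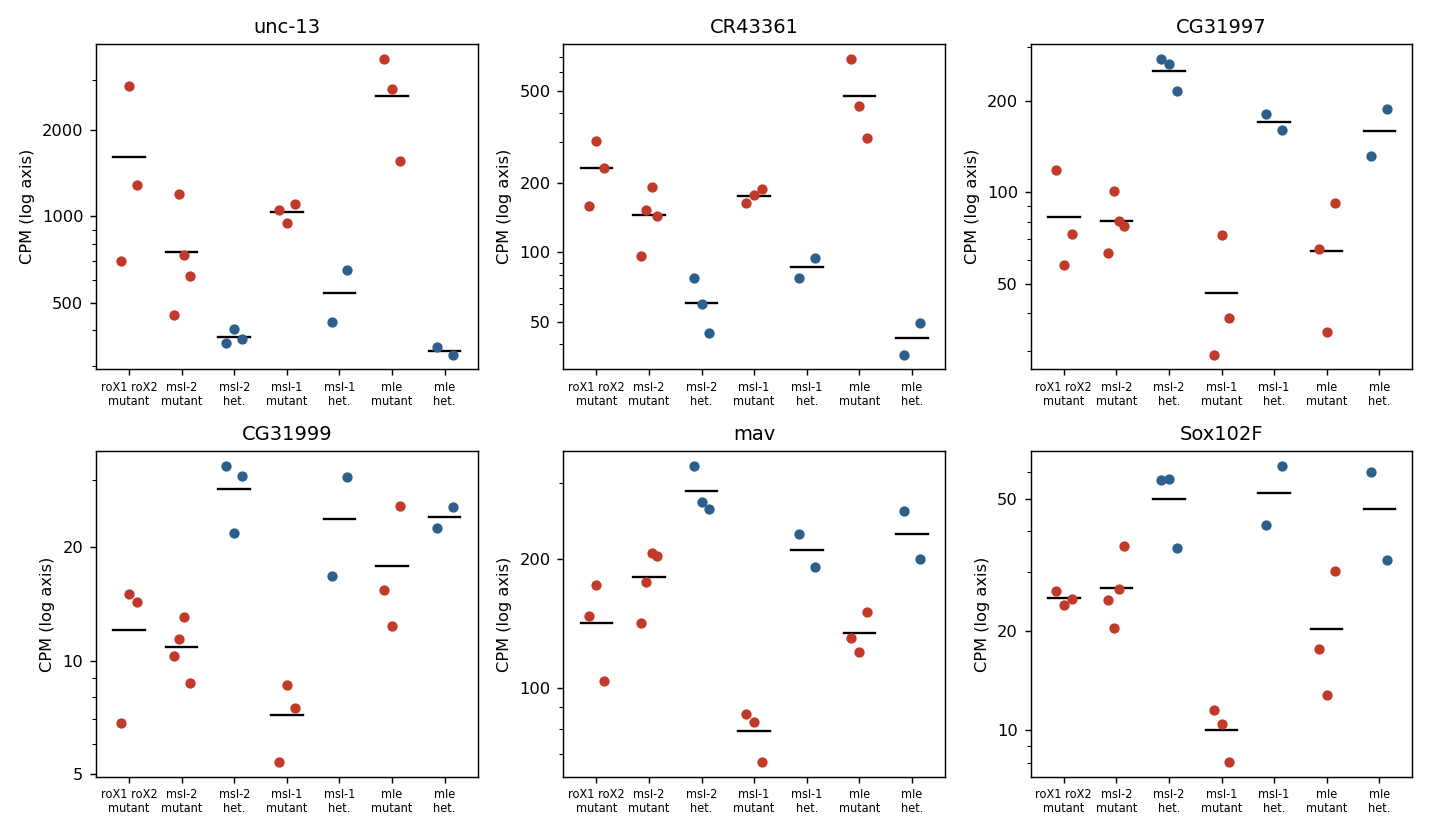
CPM (log axis) of 6 chromosome 4 genes in each of the 20 libraries, with a bar for the group mean; red, mutant; blue, heterozygous. unc-13 and CR43361 reach their highest values in mle and roX1 roX2 mutants, and CG31997, CG31999, mav and Sox102F are lowest in msl-1 mutants.

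The highest fold changes that passed came from 1 locus. unc-13, whose protein primes synaptic vesicles for release, spans 867824 to 912331 of chromosome 4 on the minus strand, and CR43361 (905179 to 907924), asRNA:CR43425 (867824 to 871426) and asRNA:CR44029 (879374 to 884752) lie opposite it on the plus strand. unc-13 was at 3549, 2790 and 1564 CPM in mle mutants, against 349.5 and 329.6 CPM in mle heterozygous discs, a log2 fold change of 2.95 ± 0.55 (SE, adjusted p = 0.00187, 7.75-fold). It was at 698, 2841 and 1290 CPM in roX1 roX2 mutants, log2 1.97 ± 0.35 (adjusted p = 0.00131). The lowest of the roX1 roX2 libraries was above all heterozygous libraries, of which the highest, msl-1 replicate 3, stood at 650 CPM, and against msl-1 heterozygous discs alone the value was 1.58 (adjusted p = 0.0757).

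In the other stocks unc-13 moved by less than the test could call. Its level was 452.5, 1199, 736 and 619 CPM in msl-2 mutants, against 361, 403 and 374 CPM in msl-2 heterozygous discs, and 1050, 945 and 1104 CPM in msl-1 mutants, against 427.5 and 650 CPM in msl-1 heterozygous discs. All mutant libraries were above the heterozygous ones of their stock. The log2 fold changes were 0.99 ± 0.42 (SE, adjusted p = 0.130) and 0.94 ± 0.50 (adjusted p = 0.184). The effect in mle exceeded that in msl-2 mutants by log2 1.97 ± 0.64, a difference that did not pass (adjusted p = 0.290).

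CR43361 passed in every comparison. It was at 96.8, 152, 191 and 143 CPM in msl-2 mutants, against 77.5, 59.5 and 44.9 CPM in msl-2 heterozygous discs, and at 163, 177 and 187 CPM in msl-1 mutants, against 77.4 and 94.8 CPM in msl-1 heterozygous discs. In mle mutants it was at 686, 427 and 312 CPM, against 36.2 and 49.4 CPM in mle heterozygous discs, and in roX1 roX2 mutants at 158, 303 and 231 CPM. No mutant library overlapped a heterozygous one. The log2 fold changes were 1.27 ± 0.29 (SE, adjusted p = 0.00863), 1.03 ± 0.34 (0.0376), 3.47 ± 0.38 (1.09e-05) and 1.92 ± 0.24 (2.4e-05) in msl-2, msl-1, mle, then roX1 roX2 mutants. The rise was larger in mle than in msl-2 mutants by log2 2.20 ± 0.45 (adjusted p = 0.0478), and msl-1 minus mle was -2.44 ± 0.48 (adjusted p = 0.0268). It was the 1 gene called in each of those differences, against 0.171% of all genes for mle minus msl-2 and 0.302% for msl-1 minus mle in the same direction. The mle minus msl-2 call was lost without 9 of the 12 libraries in turn, and the msl-1 minus mle call without 6 of the 10. In msl-1 mutants the call of CR43361 was lost without any one of the 5 libraries (log2 0.89 to 1.16).

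The antisense genes asRNA:CR43425 and asRNA:CR44029 passed in mle mutants (log2 2.85 ± 0.83 and 1.73 ± 0.53, adjusted p = 0.0341 and 0.0397) and in roX1 roX2 mutants (2.06 ± 0.55 and 1.26 ± 0.38, adjusted p = 0.0210 and 0.0345). Without roX1 roX2 replicate 3 they stood at 0.91 and 0.55 and did not pass, the call of asRNA:CR44029 was lost without 6 other libraries in turn, and in mle mutants both calls were lost without either heterozygous library or without mutant replicate 1 or 2 (log2 2.64 to 3.03 and 1.54 to 1.88). The kit marks strand, but the strand setting of the counting is not given in the sources used here, so it is not known that reads of unc-13 and of the genes opposite it were told apart. For every 100 counts of unc-13, CR43361 had 15.3 to 19.96 in mle mutants, against 10.3 and 15 in mle heterozygous discs, within the 10.3 to 21.5 of all heterozygous libraries. asRNA:CR44029 had 3.94 to 5.16, against 8.55 and 11.1 in mle heterozygous discs, below the 6.94 to 11.1 of all heterozygous libraries. The 4 genes held 0.234% to 0.480% of all counts in mle mutants, against 0.0403% and 0.0424% in mle heterozygous discs. The whole chromosome held 1.78% to 1.84% of counts in mle mutants with the locus and 1.36% to 1.55% without it, against 1.474% and 1.497% with it and 1.43% and 1.46% without it in mle heterozygous discs.

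The genes on either side did not pass with edgeR. Gyf, which encodes a GYF-domain protein and ends just before unc-13, was at 441, 383 and 415 CPM in mle mutants, against 331 and 309 CPM in mle heterozygous discs (log2 0.37 ± 0.15, adjusted p = 0.111). DESeq2 called Gyf higher in mle mutants (log2 0.45, adjusted p = 0.0122). eIF4G1, a translation initiation factor gene on the other side, was at 621.5, 761 and 704 CPM, against 832 and 750 CPM (log2 -0.19 ± 0.16, adjusted p = 0.529). The summed level of 7 markers of neurons and glia was 504 to 625 CPM in mle mutants and 515 to 658 CPM in roX1 roX2 mutants, against 529 to 701 CPM over all heterozygous libraries. Most of that sum was nrv2, and the other 6 markers summed to 110 to 176 CPM in mle and 82.1 to 151 CPM in roX1 roX2 mutants, against 110 to 263 CPM over all heterozygous libraries. All 4 higher calls of edgeR in mle and in roX1 roX2 mutants were among the 4 genes of the unc-13 locus.

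**Figure D4:**
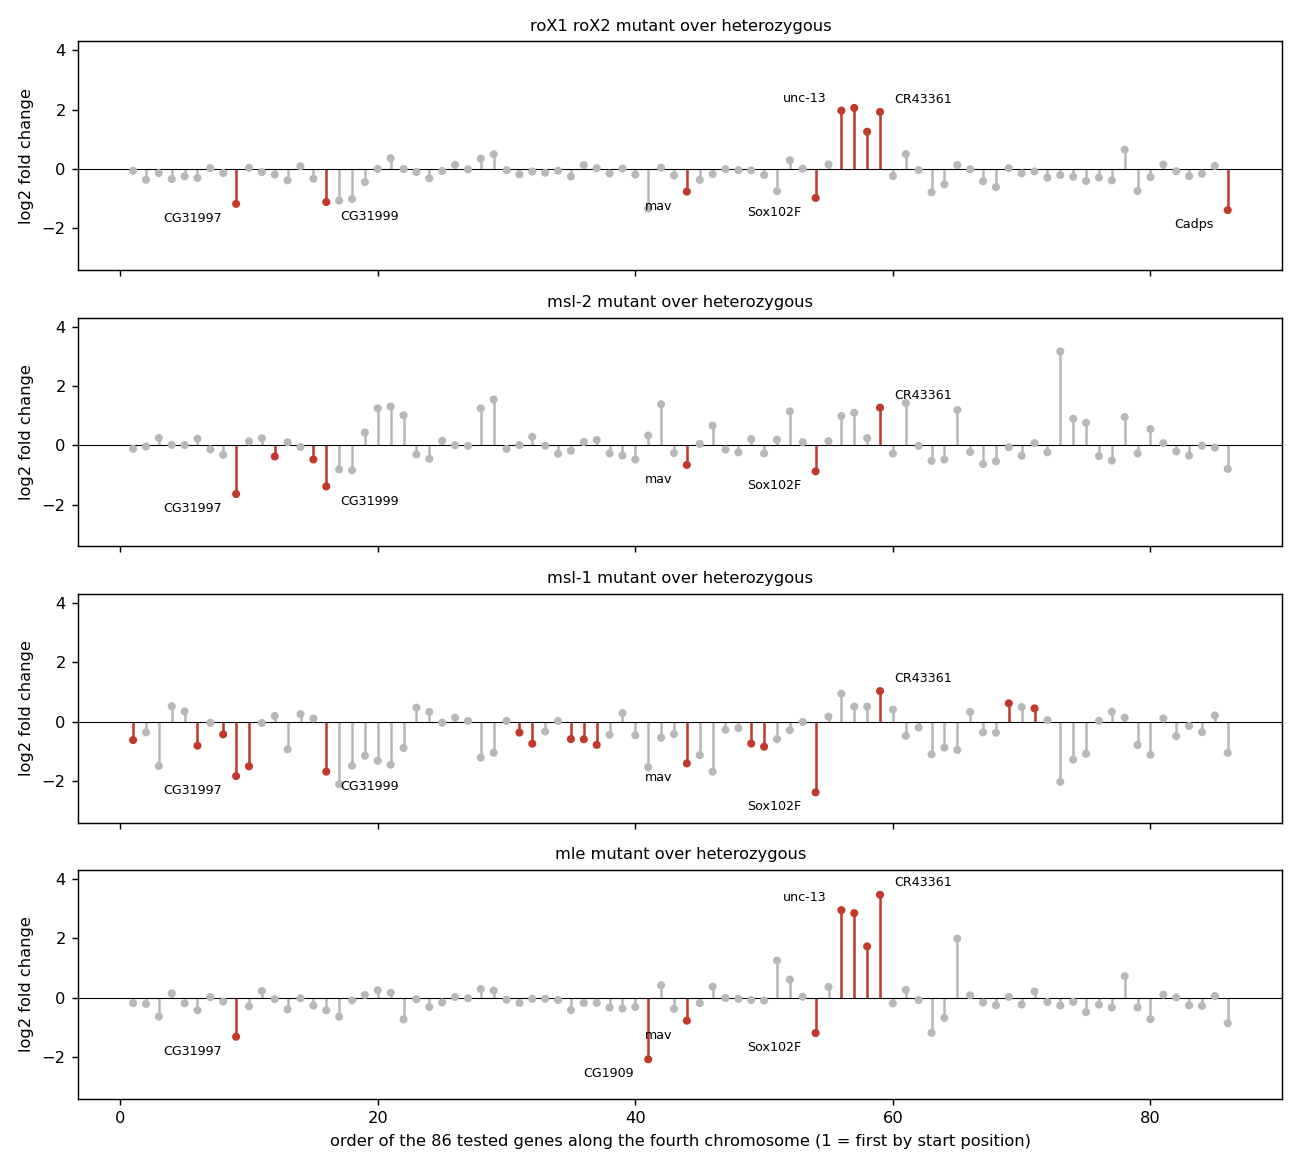
Log2 fold change, mutant over heterozygous, of the 86 tested genes in their order along the fourth chromosome, in 4 comparisons (red, adjusted p under 0.05). The higher calls in roX1 roX2 and mle mutants form 1 cluster of neighbouring genes at unc-13, and no gene of the last 29 is called lower in msl-1 mutants.

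Lower genes in msl-1 mutants included signalling and transcription genes. pan encodes the TCF factor of Wingless signalling and was at 187, 150 and 171 CPM in msl-1 mutants, against 265 and 329 CPM in msl-1 heterozygous discs (log2 -0.81 ± 0.20, SE, adjusted p = 0.00496). Its partner gene legless, lgs, was at 0.02 (adjusted p = 0.931) and Gyf at 0.17 (adjusted p = 0.435) on the log2 scale. pan did not pass in the other mutants, where it stood at 0.22, -0.42 and -0.30 in msl-2, mle and roX1 roX2. The effect on pan differed between msl-1 and msl-2 mutants by -1.03 ± 0.26 (adjusted p = 0.0130). Heterozygous msl-1 discs stood above the other heterozygous libraries for pan, which had 170 to 249 CPM, and msl-2 mutants had 191 to 285 CPM. Its call in msl-1 was lost without heterozygous replicate 3 (-0.67, adjusted p = 0.0863).

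CG33978 had the lowest p of these differences. It was at 179.5, 149 and 136 CPM in msl-1 mutants, against 386 and 493.5 CPM in msl-1 heterozygous discs (log2 -1.51 ± 0.27, adjusted p = 0.000457). In msl-2 mutants it was at 218, 304, 438 and 251 CPM, against 272, 282 and 276 CPM in msl-2 heterozygous discs, a spread on both sides of the controls. msl-1 minus msl-2 was -1.64 ± 0.36 (adjusted p = 0.00655). Heterozygous msl-1 discs also stood above the other heterozygous groups for this gene, which had 272 to 311 CPM.

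In all, 9 genes differed in effect between msl-1 and msl-2 mutants, 4 of them higher and 5 lower in msl-1 minus msl-2, against 8.69% and 8.03% of all genes. The lower ones besides CG33978, Sox102F and pan were Tdg, a thymine DNA glycosylase gene, at -0.96 ± 0.25 (adjusted p = 0.0134), and asRNA:CR45126 at -1.03 ± 0.29 (adjusted p = 0.0195). For both, too, heterozygous msl-1 discs stood above all other heterozygous libraries. The higher ones were Rad23, a proteasome shuttle gene (0.78 ± 0.26), the zinc transporter gene Zip102B (0.78 ± 0.25), eIF4G1 (0.68 ± 0.21) and the small GTPase gene Arl4 (0.56 ± 0.18). Leaving out 1 library at a time gave 0 such genes without msl-1 heterozygous replicate 3, 3 without msl-1 mutant replicate 2, 5 without msl-2 heterozygous replicate 1 or 2 or mutant replicate 3, and 16 or 17 without msl-1 heterozygous replicate 1 or msl-2 mutant replicate 4 or 1.

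Of 10 developmental transcription factors tested, 1, 2, 1 and 1 were lower in msl-2, msl-1, mle, then roX1 roX2 mutants, Sox102F in each and zfh2 in msl-1. zfh2, a zinc finger homeodomain gene of the proximal wing, was at 268, 333 and 261 CPM in msl-1 mutants, against 440 and 429 CPM in msl-1 heterozygous discs (log2 -0.60 ± 0.20, adjusted p = 0.0304), a call lost without any 1 of 4 of these 5 libraries. All 10 had negative fold changes in msl-1 mutants, with a median of -0.92, against -0.09 over all genes tested, but 2 of the 10 passed. Of the 10, 6 are among the 29 genes of lowest level, with a median of -1.02, against -0.54 for chromosome 3 genes of that level. In msl-2 mutants the list's median was 0.47 and that of all genes -0.04, and in roX1 roX2 mutants -0.06 and -0.05. The Pax6 genes toy and ey, selectors of eye development, were high in 1 library. mle mutant replicate 2 had 77.8 CPM of toy and 23.4 CPM of ey, against 3.98 and 4.56 CPM of toy and 3.41 and 4.91 CPM of ey in the other mle mutants and 5.41 and 9.08 CPM of toy and 2.56 and 6.39 CPM of ey in mle heterozygous discs. Neither passed (log2 1.997 and 1.26, adjusted p = 0.200 and 0.254).

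Of 7 guidance genes and receptors, PlexB, a semaphorin receptor gene (log2 -0.62 ± 0.21, adjusted p = 0.0327), and anne (-0.43 ± 0.15, adjusted p = 0.0399) were lower in msl-1 mutants. The call of PlexB was lost without any one of the 5 libraries (log2 -0.68 to -0.58) and that of anne without 4 of them (-0.45 to -0.35). In the other 3 mutants no gene of this list passed with edgeR or DESeq2, with 3, 1 and 0 at an unadjusted p under 0.05 in msl-2, mle and roX1 roX2. Eph and Ephrin, a receptor tyrosine kinase and its ligand, ran from -0.22 to -0.42 and from -0.19 to -0.48 over the 4 mutants and did not pass.

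Of 10 genes for kinases, adaptors and small GTPases, 2 were lower in msl-2 mutants. In msl-1 mutants 1 passed in each direction. Crk, an SH2 and SH3 adaptor gene, was at 216, 180, 180.5 and 226 CPM in msl-2 mutants, against 305, 276.5 and 257 CPM in msl-2 heterozygous discs (log2 -0.48 ± 0.13, adjusted p = 0.0239). Arl4 was at 128.5, 129, 125 and 139 CPM, against 184, 179 and 145 CPM (log2 -0.38 ± 0.12, adjusted p = 0.0379). Both pairs of groups were apart, and both calls were lost without heterozygous replicate 1 (-0.41 and -0.31), heterozygous replicate 2 (-0.48 and -0.33), mutant replicate 2 (-0.43 and -0.37) or mutant replicate 3 (-0.43 and -0.36), and that of Arl4 also without mutant replicate 1 (-0.37).

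CaMKII, a calcium-dependent kinase gene, was at 277, 268 and 260 CPM in msl-1 mutants, against 194 and 200 CPM in msl-1 heterozygous discs (log2 0.44 ± 0.14, adjusted p = 0.0243). Asator, a tau-tubulin kinase gene, was lower there (log2 -0.59 ± 0.15, adjusted p = 0.00760). CaMKII lost its call without any 1 of 4 of the 5 libraries. In mle and roX1 roX2 mutants no gene of this list passed with edgeR or DESeq2, with 1 and 4 at an unadjusted p under 0.05.

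Most genes of translation and of mitochondria did not pass. RpS3A was at 4354, 4534 and 5017 CPM in msl-1 mutants, against 3866 and 3443 CPM in msl-1 heterozygous discs (log2 0.34 ± 0.22, adjusted p = 0.272), and between -0.24 and 0.01 in the other mutants. ATPsynbeta was between -0.35 and 0.49 and did not pass. The 8 mitochondrial and housekeeping genes ran from log2 -1.12 to 0.49 in msl-1 mutants, where 3 had an unadjusted p under 0.05, 1 was called by edgeR and 2 by DESeq2. The edgeR call was Tdg, lower in msl-1 mutants (log2 -0.79 ± 0.19, adjusted p = 0.00400), a call lost without heterozygous replicate 3 (-0.69, adjusted p = 0.0699). Of 4 genes of translation and RNA silencing, which include gw of the microRNA pathway, no gene passed with edgeR in any mutant, with 1, 1, 0 and 0 at an unadjusted p under 0.05 in msl-2, msl-1, mle, then roX1 roX2, and DESeq2 called 1 in msl-1.

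Of 4 genes listed as chromatin genes and cofactors, pho, Hcf and Pur-alpha did not pass in any mutant with edgeR or DESeq2. The other, CG1909, for which no chromatin role is given in the sources used here, passed in mle mutants. It was at 10.2, 2.55 and 3.86 CPM in mle mutants, against 8.25 and 37.0 CPM in mle heterozygous discs (log2 -2.07 ± 0.56, adjusted p = 0.0143). Mutant replicate 1 was above heterozygous replicate 1, and without heterozygous replicate 2 the value was -0.62 (adjusted p = 0.668). The call was also lost without mutant replicate 2 (-1.73) or 3 (-1.86). pho, which encodes a Polycomb response element binding protein, and Hcf, the host cell factor gene, were between 0.07 and 0.15 and between -0.02 and 0.02 in the 4 mutants.

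**Figure D5:**
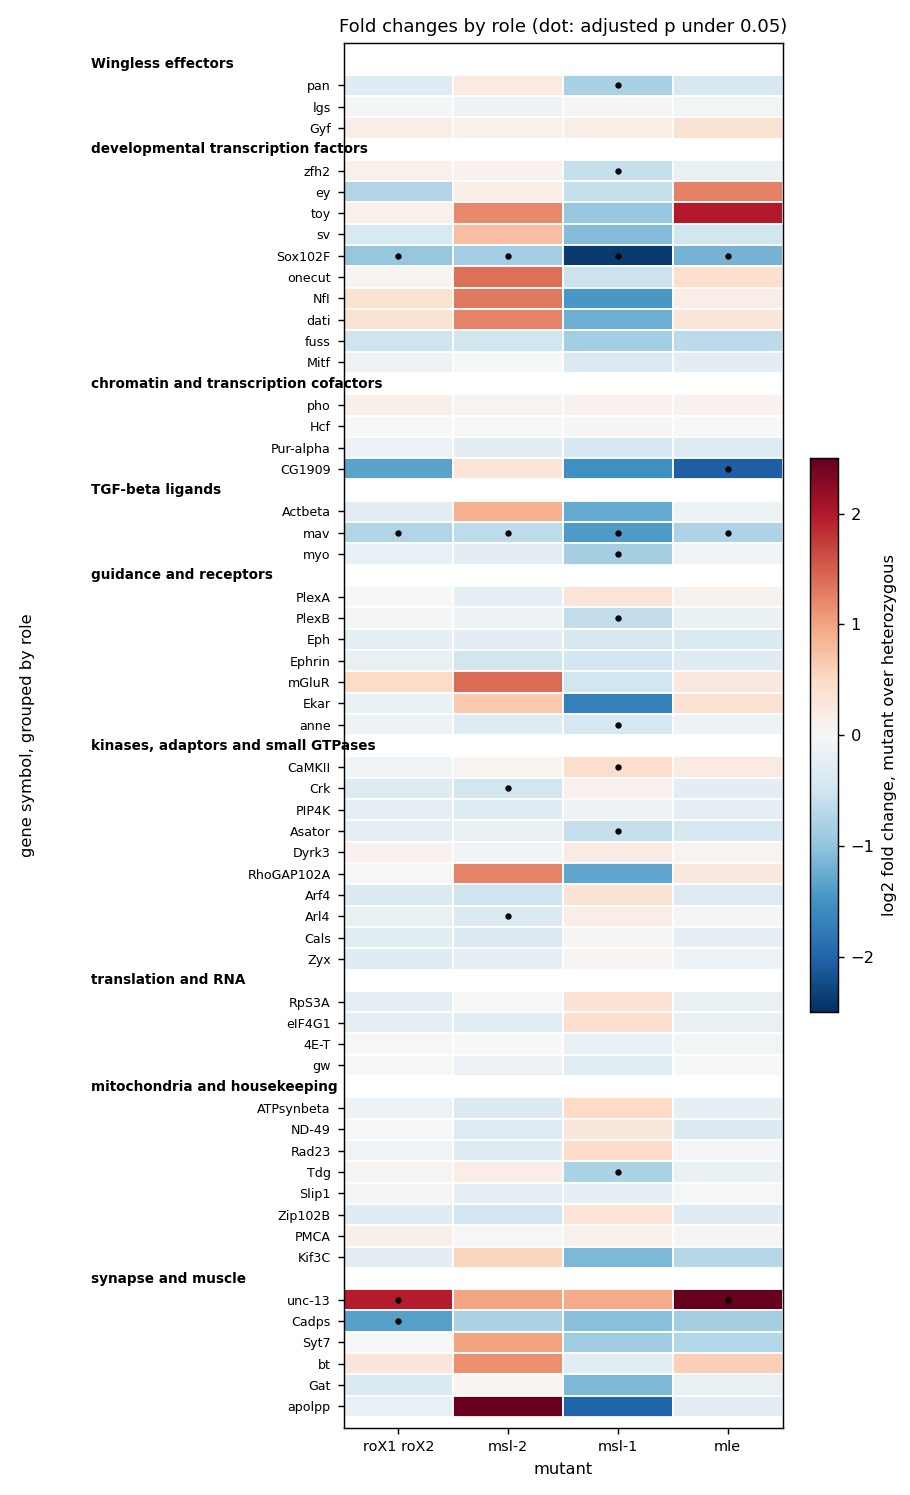
Log2 fold changes, mutant over heterozygous, of the role-list genes of the fourth chromosome (rows) in 4 comparisons (columns), with colours capped at 2.5 in either direction and a dot where the adjusted p was under 0.05. Sox102F and mav carry a dot in every column, and most dots of the other genes are in the msl-1 column.

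Of the 6 synapse and muscle genes, Cadps, which acts in dense-core vesicle release, was lower in roX1 roX2 mutants. It was at 5.37, 6.74 and 11.1 CPM there, against 10.1 to 30.3 CPM over the heterozygous libraries (log2 -1.38 ± 0.32, adjusted p = 0.00456), and in msl-1 heterozygous discs alone it stood at 10.1 and 18.1 CPM, a comparison that did not pass (-0.90, adjusted p = 0.194). apolpp, which encodes the lipoprotein precursor made by the fat body, was at 14.0, 303, 22.4 and 18.5 CPM in msl-2 mutants, against 11.2, 13.1 and 5.80 CPM in msl-2 heterozygous discs (log2 3.16 ± 1.06, adjusted p = 0.0688). Replicate 2 alone was high, and the summed level of 5 fat body markers was 3740 CPM in that library, against 18.1 to 331 CPM in the other msl-2 mutants and 15.6 to 51.4 CPM in msl-2 heterozygous discs. bt, the gene of the muscle protein projectin, was at 37.6, 33.3, 44.5 and 24.1 CPM in msl-2 mutants, against 11.6, 15.2 and 19.8 CPM in msl-2 heterozygous discs, and did not pass (log2 1.14 ± 0.56, adjusted p = 0.187). The 7 larval muscle markers summed to 506 to 1189 CPM in msl-2 mutants, against 125 to 193 CPM in msl-2 heterozygous discs. Most of that sum was sls, with means of 679 and 116 CPM. It was the 1 marker of the 7 that passed (log2 2.54 ± 0.37, adjusted p = 0.000747). The other 6 ran from log2 -0.08 for Mlp60A to 1.49 for Mhc and did not pass. The part of other tissue in these values was not tested.

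The proteins that act on this chromosome are encoded elsewhere. Of 12 such genes tested, Pof was higher in msl-1 mutants, at 80.4 to 99.4 CPM, against 43.0 and 59.2 CPM in msl-1 heterozygous discs (log2 0.76 ± 0.20, adjusted p = 0.00776), and did not pass in the others (0.08, 0.07 and -0.10 in msl-2, mle and roX1 roX2). wde, a cofactor gene of egg, was lower in msl-1 mutants (-0.59 ± 0.16, adjusted p = 0.0106), and egg did not pass (0.43 ± 0.17, adjusted p = 0.0680). The other lower genes of the list, 2 in msl-2 and 3 in each of the other mutants, were the X-linked G9a, HP1b and HP5. Of all X genes tested, 27.2%, 26.3%, 37.9% and 28.5% were lower in msl-2, msl-1, mle, then roX1 roX2 mutants. The gene of HP1 itself was between -0.11 and -0.29 and did not pass.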

How the data were processed

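The authors deposited raw counts per FlyBase gene for 21 libraries; per the labels, libraries were made from poly-A RNA with a TruSeq Stranded mRNA kit. Tools named in the submitters' processing notes include featureCounts (Subread 1.6.1), STAR 2.6.1b and, as build, dm6. Genes were placed by FlyBase identifier on the reference annotation of dm6: 17252 of 17558 matched, and 306, with 5.53% of counts, did not. The strand setting of the counting is not given in the sources used here. Of 141 genes wholly within exons of the opposite strand 139 had counts, which dropping all reads shared between strands would not give. Of 132 with all overlapping genes in the table, 7 had more counts than those genes together. Overlapping and antisense genes are reported as uncertain.

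edgeR 4.0.16 in R 4.3.3 fitted robust quasi-likelihood models with 1 mean for each of 7 groups over 20 libraries, for 9926 genes with at least 10 counts in at least 3 libraries. TMM factors came from genes of chromosomes 2 and 3, with Benjamini-Hochberg adjustment over all genes tested. Adjusted p values are from edgeR's quasi-likelihood test unless DESeq2 (1.42.0) is named, and standard errors were derived from the F statistic and the log2 fold change. CPM use the same factors, RPKM divide by exon length, and values per library use log2 CPM with a prior count of 2. The chromosome 4 minus chromosome 3 difference is a description with no test. Totals of 1388848 to 4131600 counts limit the precision for low genes. The fits were also run on counts simulated with their own dispersions and library sizes. Such counts hold no outlying library, other tissue or control difference, so that run cannot show how these affect the calls.

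Named genes were up to 5 with the highest and 5 with the lowest fold change called per comparison, up to 8 called in most comparisons, up to 4 per role list, the 5 of highest RPKM and up to 5 of smallest p per difference between mutants; any other gene was named after its values were seen. The genes, lists and tests were chosen with earlier results of these data known.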

Additional observations from a re-analysis of the deposited data

Results flagged for a closer look

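Outliers were sought only in msl-2 mutants, the group with 4 libraries. There, 2 of 45 values tested stood far from the rest, a number near the 1 in 20 that chance gives. Libraries of smaller groups, such as mle mutant replicate 2 for toy and ey, could not be flagged. In msl-2 mutant replicate 2, asRNA:CR44029 was at 69.5 CPM, against 27.9 to 32.9 CPM in the other msl-2 mutants, and apolpp was at 303 CPM, against 14.0 to 22.4 CPM. The same library held 3740 CPM of fat body markers, and the part of other tissue was not tested.

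The fold change against heterozygous discs differed between msl-1 and msl-2 mutants for 9 genes (edgeR, msl-1 minus msl-2). Of the 86 genes, 4.65% were higher and 5.81% lower, against 8.69% and 8.03% of all genes. Without msl-1 heterozygous replicate 3 the count was 0. The log2 differences were -1.64 for CG33978, -1.51 for Sox102F, -1.03 for pan, -1.03 for asRNA:CR45126, -0.96 for Tdg, 0.56 for Arl4, 0.68 for eIF4G1, 0.78 for Zip102B and 0.78 for Rad23. For CR43361 mle minus msl-2 was 2.20 and msl-1 minus mle was -2.44.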

How the results depend on the processing

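The difference between the chromosome 4 and chromosome 3 medians (as reported -0.02, -0.37, -0.14 and -0.15 in msl-2, msl-1, mle, then roX1 roX2 mutants) moved by more than the spread between libraries as follows. In msl-2 it was -0.26 without a filter and 0.0569 with genes above the median level. In msl-1 it was -0.0617 with all 21 libraries, -0.32 with filterByExpr, -0.0519 without a filter, -0.31 with means, -0.44 against chromosome 3 genes of the middle 80% of levels and -0.13 above the median level. In mle it was -0.0222 with means and -0.0267 above the median level. In roX1 roX2, where that spread was widest at 0.142, no value moved by more. There it was -0.0339 with all 21 libraries and -0.0415 above the median level. The cause was not tested. The last of these, protein-coding genes alone, genes that overlap no other gene and the locus left out below were chosen after seeing the data. Leaving out 1 library at a time gave -0.0921 to -0.00691, -0.41 to -0.26, -0.19 to -0.09 and -0.21 to -0.02; the ends were reached without msl-2 heterozygous replicate 4 (-0.0921) and msl-1 heterozygous replicate 3 (-0.26).

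Counts of higher genes (1, 3, 4 and 4) became 0 in msl-2 with all 21 libraries and 2 with only the groups compared, 7 in msl-1 with only the groups compared and 5 with DESeq2, 2 in mle without a filter, and in roX1 roX2 2 with only the groups compared, 1 against msl-1 and 2 against mle heterozygous discs. Without unc-13 and the 3 genes opposite it they were 0, 2, 0 and 0. Counts of lower genes (6, 15, 4 and 5) became 1 in msl-2 with all 21 libraries and 3 with TMM on all genes, 8 in msl-1 without a filter and 25 with only the groups compared, 0 in mle with all 21 libraries and 1 with only the groups compared, and in roX1 roX2 3 with all 21 libraries, 10 against msl-2, 2 against msl-1 and 3 against mle heterozygous discs. Leaving out 1 library gave 1 to 2, 0 to 2, 2 to 4 and 2 to 4 higher and 2 to 9, 7 to 12, 1 to 4 and 4 to 6 lower. Genes that differed between mutants (9, 1 and 1 for msl-1 minus msl-2, mle minus msl-2 and msl-1 minus mle) numbered 14, 0 and 0 with all 21 libraries and 15 in the first with DESeq2, and 0 to 17, 0 to 1 and 0 to 2 without 1 library.

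Deviations of same-numbered samples had r = 0.11, 0.06 and -0.26 in msl-2, -0.05 and 0.19 in msl-1, and -0.14 and 0.03 in mle. With 2 controls in msl-1 and in mle, the values for the 2 mirror each other. Whether the numbers pair samples thus could not be told. With a replicate block the counts were 0 higher and 3 lower in msl-2, 0 and 9 in msl-1 and 2 and 3 in mle, and the differences -0.05, -0.33 and -0.19; roX1 roX2 mutants have no control to block with. Of 42 gene calls, 6 held under every alternative (CG31999 in msl-2, CG33978 and Sox102F in msl-1, unc-13 and CR43361 in mle, CR43361 in roX1 roX2); of 632 alternative values 169 missed the threshold and 0 reversed.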
